A study of Mus musculus with 12 samples.

Results

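RNA of 9 secreted signalling genes was followed in growth-arrested embryonic fibroblasts of the mouse, with and without mutations of Rb1. The genes were the chemokines Cxcl1, Cxcl2, Cxcl5, Cxcl12, Ccl2 and Ccl7, the cytokines Il6 and Lif, which signal through gp130, and the growth factor Csf1. They were chosen by symbol: a probe set counted when it was annotated to 1 of these symbols alone, and where a gene had several, that of highest mean over the 12 arrays was to be used. Each of the 9 genes had 1 such probe set, so the set is 9 of the 19938 genes tested.

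Chemokines are small secreted proteins that bind seven-helix receptors and guide migrating leukocytes. Cxcl1, Cxcl2 and Cxcl5 attract neutrophils through Cxcr2, Ccl2 and Ccl7 attract monocytes through Ccr2, and Cxcl12 retains blood progenitor cells through Cxcr4. Fibroblasts secrete them, and many are induced through NF-kappaB when the cells meet interleukin-1, TNF or bacterial products. Il6 and Lif act through gp130 and STAT3, and Csf1 keeps macrophages alive through Csf1r.

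Each sample was read on its own Affymetrix Mouse Gene 1.0 ST array, in 4 groups of 3. The groups were Rb1 S/S fibroblasts, the Rb1 +/+ fibroblasts matched to them (the S-set wild type), Rb1 L/L fibroblasts, and the Rb1 +/+ fibroblasts matched to those (the L-set wild type). All 4 groups were expanded in 10% serum up to passage 4 and then held in 0.1% serum for 72 h, so that every comparison is between growth-arrested cells. Rb1 encodes the retinoblastoma protein, which restrains E2F-driven transcription, and the series title is about its part in silencing endogenous retroelements. The labels do not say what S and L change in the protein. In published work, alleles with these names weaken a contact specific to E2F1 (S) and the cleft that binds LXCXE proteins (L). The labels give no strain, sex or embryonic age. They also leave unsaid if the 3 samples of a group derive from different embryos, so a p-value here reflects the spread of these samples alone, which may in part be technical.

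The values are log2 RMA values, for which 1 unit is a doubling of signal. Differences were tested with limma over all 12 arrays, and an adjusted p is the Benjamini-Hochberg value over all 19938 genes; a gene was called at an adjusted p under 0.05. Array medians lay between 6.85 and 7.01. Array 1 of the S-set wild type stood apart: its interquartile range was 3.10 against at least 3.39 in the other 11 arrays, and its residual SD around the group means was 0.325 against 0.0933 to 0.193. Array 1 of the L-set wild type and array 1 of L/L came from male cells (Xist at 5.06 and 5.41), whereas the other 10 arrays had Xist between 10.4 and 11.5 and were female. The larger differences of the 9 genes that these arrays moved are also given without them. Of 15 fibroblast markers 14 were measured, and their mean level was between 11.4 and 11.8 in every array. Rb1 RNA, which does not check the genotype of an altered protein, was 8.34 to 8.89 in the S-set wild type and 9.35 to 9.72 in S/S, a difference of 0.87 (SE 0.17, adjusted p = 0.0976); in L/L the difference was 0.36 (SE 0.17, adjusted p = 1).

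The sequences before the gene starts of the members were read from RefSeq (GRCm38.p6), in windows of 300 bases that run from 250 bases before the start to 50 after it. They are shown because NF-kappaB is a well-known inducer of several of these genes, and because Cxcl12 was the member that passed a test. Capitals mark matches, on either strand, to a core form of the NF-kappaB site (GGG, any 2 bases, then TTTCC) and to TGACTCA, the AP-1 site. The windows are chr5:90890995-90891294 (plus strand) for Cxcl1, chr5:90903649-90903948 (plus) for Cxcl2, chr5:30012864-30013163 (plus) for Il6, chr3:107760420-107760719 (minus) for Csf1 and chr6:117168285-117168584 (plus) for Cxcl12.
Cxcl1: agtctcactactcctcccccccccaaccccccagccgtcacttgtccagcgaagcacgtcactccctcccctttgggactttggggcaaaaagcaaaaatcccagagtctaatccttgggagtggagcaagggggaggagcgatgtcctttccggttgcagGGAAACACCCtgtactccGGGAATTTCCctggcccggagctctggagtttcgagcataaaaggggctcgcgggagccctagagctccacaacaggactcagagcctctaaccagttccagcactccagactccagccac
Cxcl2: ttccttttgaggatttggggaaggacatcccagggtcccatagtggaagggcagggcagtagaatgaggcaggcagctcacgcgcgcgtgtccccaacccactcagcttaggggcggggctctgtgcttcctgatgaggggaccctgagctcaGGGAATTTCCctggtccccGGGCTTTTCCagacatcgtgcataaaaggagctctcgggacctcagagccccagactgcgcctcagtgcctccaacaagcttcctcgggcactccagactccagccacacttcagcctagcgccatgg
Il6: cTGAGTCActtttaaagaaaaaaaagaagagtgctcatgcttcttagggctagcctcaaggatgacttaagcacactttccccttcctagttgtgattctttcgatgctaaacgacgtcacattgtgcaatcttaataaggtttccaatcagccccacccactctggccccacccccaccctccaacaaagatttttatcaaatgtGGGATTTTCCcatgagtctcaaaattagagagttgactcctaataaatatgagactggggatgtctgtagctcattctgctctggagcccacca
Csf1: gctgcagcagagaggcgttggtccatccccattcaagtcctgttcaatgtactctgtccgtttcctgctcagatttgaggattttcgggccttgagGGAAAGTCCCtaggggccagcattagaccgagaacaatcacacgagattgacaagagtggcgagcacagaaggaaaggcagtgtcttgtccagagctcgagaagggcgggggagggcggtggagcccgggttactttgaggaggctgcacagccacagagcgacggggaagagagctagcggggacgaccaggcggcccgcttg
Cxcl12: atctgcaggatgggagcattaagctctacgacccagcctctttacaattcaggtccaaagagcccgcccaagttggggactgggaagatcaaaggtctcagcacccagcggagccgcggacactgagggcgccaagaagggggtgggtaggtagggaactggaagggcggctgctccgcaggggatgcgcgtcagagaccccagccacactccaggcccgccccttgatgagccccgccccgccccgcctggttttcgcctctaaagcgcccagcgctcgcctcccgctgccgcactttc

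Windows were matched for 6 of the 9 members, the others being Cxcl5, Ccl2 and Ccl7. The NF-kappaB letters were found in 4 of the 6, against 1.63% of 32851 windows of the same length in the table. Cxcl1 held them at -89 on the minus strand and at -71, and its neighbour Cxcl2 at -97 and -78. Il6 held them at -44 and Csf1 at -154 on the minus strand. The AP-1 letters, found in 5.2% of all windows, were at -249 in Il6 and at -228 in Lif. Cxcl12 held neither. A match of letters is a description of the window and not a measured site.

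Among the neutrophil-attracting chemokines, Cxcl5 was lower in S/S than in its wild type. Its values were 7.56, 8.02 and 8.08 in the S-set wild type and 7.27, 6.96 and 6.76 in S/S. All 3 mutant arrays lay below all 3 wild-type arrays, with means of 6.99 ± 0.25 and 7.89 ± 0.28 (SD, n = 3). The difference was -0.89 (SE 0.23, 95% interval -1.39 to -0.39), which is 1.86-fold lower; the unadjusted limma p was 0.00193 and the adjusted p was 0.22, so it was not called. Without the wild-type array that stood apart the difference was -1.06 (adjusted p = 0.113). In the L set Cxcl5 read 6.81, 7.58 and 7.88 in the wild type and 7.28, 7.11 and 7.07 in L/L. Here the groups overlapped, the male wild-type array being the lowest of the 6. The difference was -0.27 (SE 0.23, adjusted p = 1) over all arrays and -0.64 (SE 0.21, adjusted p = 1) without the 2 male arrays.

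Cxcl1, a mouse counterpart of the human GRO chemokines, read 8.20, 7.27 and 7.38 in the S-set wild type and 7.13, 7.17 and 7.34 in S/S. The wild-type value of 8.20 came from the array that stood apart, and the other wild-type values were within the range of, or just above, the mutant ones. With all arrays the difference was -0.40 (SE 0.19, adjusted p = 0.499), and without that array it was -0.11 (SE 0.10, adjusted p = 0.716). In the L set Cxcl1 was almost level, at 7.41, 7.50 and 7.51 in the wild type and 7.53, 7.51 and 7.71 in L/L. The groups overlapped narrowly, and the difference was 0.11 (SE 0.19, adjusted p = 1).

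Cxcl2, which shares Cxcr2 with Cxcl1 and Cxcl5, was dim in every group. It read 5.19, 4.89 and 4.93 in the S-set wild type and 4.86, 4.58 and 5.13 in S/S, a difference of -0.14 (SE 0.17, adjusted p = 0.759), and of -0.049 without the wild-type array that stood apart. In the L set it read 5.01, 4.81 and 4.86 in the wild type and 4.92, 5.53 and 4.95 in L/L, a difference of 0.24 (SE 0.17, adjusted p = 1). The mutant and wild-type arrays overlapped in both sets, and the L/L difference rested on L/L array 2, without which it was 0.042 (0.41 without the male arrays). As a guide to the level a probe set gives without its target, the Y-linked genes Eif2s3y, Uty and Kdm5d read 3.82 to 5.51 in the 10 female arrays (up to 5.17 without the array that stood apart). Probe sets differ in their background, so this range is a guide only, but Cxcl2 lay inside it in all arrays except L/L array 2.

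Cxcl12, the ligand of Cxcr4, did not separate either mutant from its wild type. It read 9.19, 9.70 and 9.83 in the S-set wild type and 9.59, 9.68 and 9.77 in S/S, and 10.36, 10.21 and 10.17 in the L-set wild type and 10.38, 10.33 and 10.27 in L/L. The S/S arrays lay inside the range of their wild type, and the L/L arrays overlapped theirs. The differences were 0.11 (SE 0.14, adjusted p = 0.779) in S/S and 0.08 (SE 0.14, adjusted p = 1) in L/L. The S/S value was -0.08 without the wild-type array that stood apart.

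The monocyte-attracting chemokines Ccl2 and Ccl7 had higher means in S/S and lower means in L/L than in the matched wild types, and neither was called in either set. Ccl2 read 10.31, 10.18 and 10.54 in the S-set wild type and 11.08, 10.74 and 10.71 in S/S. Every S/S array was above every wild-type array, with means of 10.84 ± 0.20 and 10.34 ± 0.18 (SD, n = 3). The difference was 0.50 (SE 0.17, 95% interval 0.13 to 0.88), or 1.42-fold, with an unadjusted limma p of 0.0127 and an adjusted p of 0.385. For the L set, Ccl2 read 9.74, 10.15 and 10.25 in the wild type and 9.38, 9.84 and 9.93 in L/L. These groups overlapped, with the male wild-type array below 2 of the L/L arrays. The difference was -0.33 (SE 0.17, adjusted p = 1), and -0.31 without the male arrays. Left out singly, which leaves a male array in 1 group only, they moved it in opposite directions, to -0.48 without the wild-type one and -0.16 without the L/L one.

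Ccl7, whose gene lies next to Ccl2, differed from its wild types in the same directions. Its values were 10.93, 10.78 and 10.92 in the S-set wild type and 11.44, 11.19 and 11.25 in S/S, again without overlap. The means in wild type and S/S were 10.87 ± 0.09 and 11.29 ± 0.13 (SD, n = 3). The difference was 0.42 (SE 0.15, 95% interval 0.10 to 0.74), or 1.34-fold, with an unadjusted limma p of 0.014 and an adjusted p of 0.39. For the L set, it read 10.75, 11.23 and 11.16 in the wild type and 10.41, 10.78 and 10.86 in L/L, with overlap through the male wild-type array. The difference was -0.37 (SE 0.15, unadjusted p = 0.0281, adjusted p = 1), and -0.37 as well without the male arrays, but -0.51 without the wild-type one alone and -0.23 without the L/L one alone. In both sets the array that was highest or lowest for Ccl2 within its mutant group, S/S array 1 and L/L array 1, was also so for Ccl7.

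The difference between the S/S effect and the L/L effect was tested directly. For Ccl2 it was 0.83 (SE 0.25, unadjusted p = 0.00494, adjusted p = 0.597), and for Ccl7 it was 0.78 (SE 0.21, unadjusted p = 0.00239, adjusted p = 0.475). For Cxcl5 it was -0.63 (SE 0.33, adjusted p = 0.781), and -0.32 without the male wild-type array or -0.25 without both male arrays. For Cxcl1 it was -0.51, and -0.22 without the array that stood apart. None passed, and the effects are therefore not shown to differ between the mutants. The adjusted values depend on how the arrays are weighted: with limma's array quality weights, which gave weights from 0.0774 (S-set wild type 1) to 5.88 (S-set wild type 2), Ccl2 was 0.99 (adjusted p = 0.0359) and Ccl7 was 0.94 (adjusted p = 0.0251). Over all 19938 genes these weights gave 293 called for this difference, against 3 at equal weight.

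**Figure D1:**
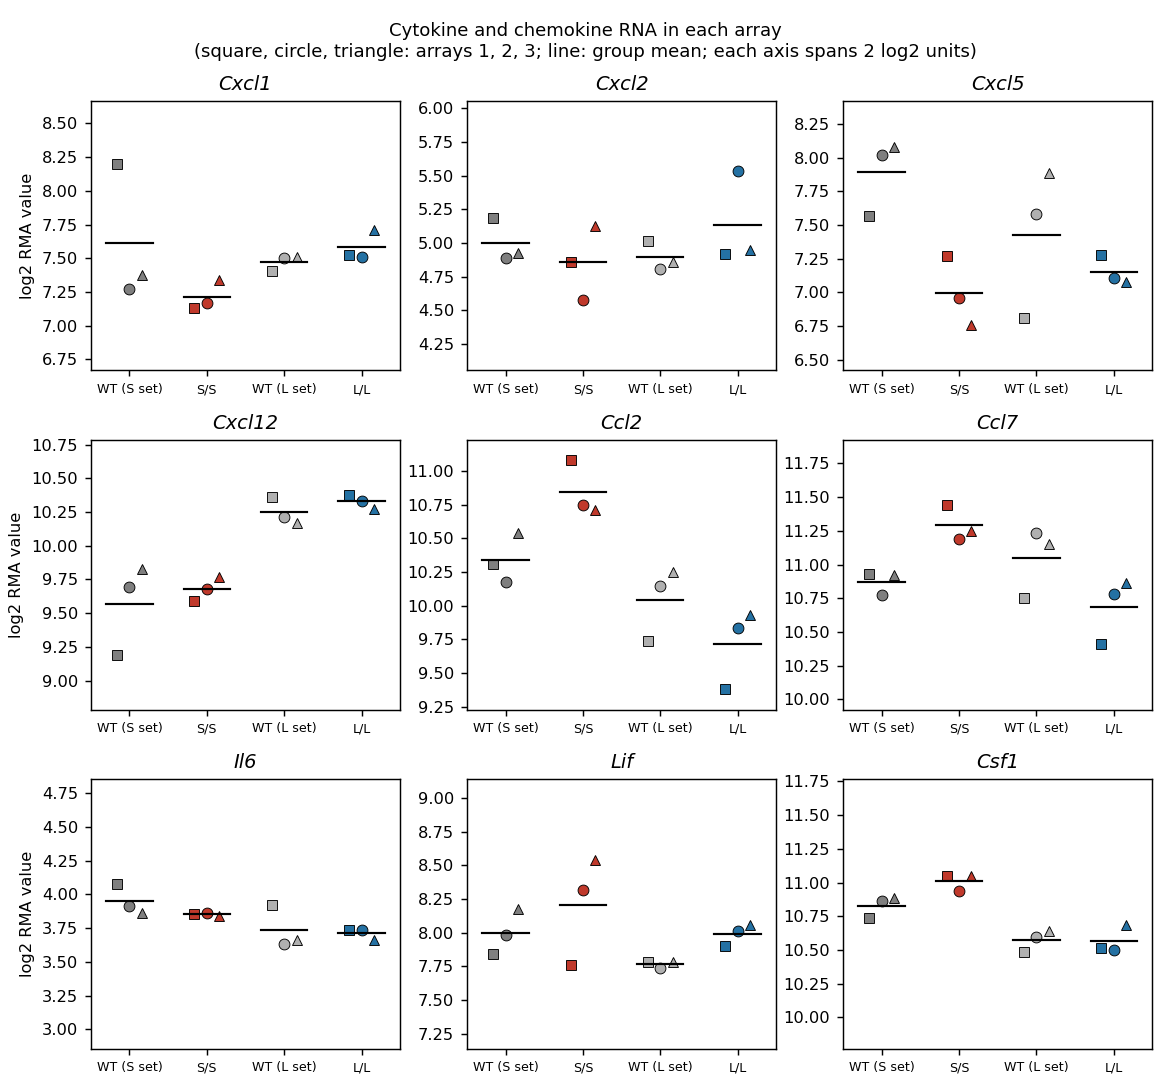
Log2 RMA value (y axis) of each of the 9 genes in the 12 arrays, by group (x axis); squares, circles and triangles are arrays 1, 2 and 3, lines are group means, and each panel spans 2 log2 units. Cxcl5 is lower and Ccl2 and Ccl7 are higher in all 3 S/S arrays than in the 3 arrays of their wild type, and Cxcl12 lies between 10.17 and 10.38 in the L set against at most 9.83 in the S set.

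Il6 was dim in every group. It read 4.08, 3.92 and 3.86 in the S-set wild type, 3.85, 3.86 and 3.84 in S/S, 3.92, 3.63 and 3.66 in the L-set wild type and 3.74, 3.74 and 3.66 in L/L. These values lay within or below the range of 3.82 to 5.51 that the Y-linked probe sets gave in female cells. The differences were -0.10 (SE 0.10, adjusted p = 0.722; -0.037 without the array that stood apart) in S/S and -0.03 (SE 0.10, adjusted p = 1) in L/L. At such a signal a difference in Il6 RNA may not be detectable.

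Lif, the gp130 ligand that keeps embryonic stem cells undifferentiated, was well above that range. It read 7.84, 7.98 and 8.17 in the S-set wild type and 7.76, 8.32 and 8.54 in S/S, with 1 mutant array below and 2 above the wild-type range; the difference was 0.21 (SE 0.16, adjusted p = 0.633), 0.13 without wild-type array 1 and 0.43 without S/S array 1. In the L set it read 7.78, 7.74 and 7.78 in the wild type and 7.90, 8.01 and 8.06 in L/L. The 3 L/L arrays lay above the 3 wild-type arrays, and the difference was 0.22 (SE 0.16, adjusted p = 1).

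Csf1, the macrophage growth factor, read 10.74, 10.86 and 10.88 in the S-set wild type and 11.05, 10.94 and 11.05 in S/S. The groups did not overlap, and the difference was 0.18 (SE 0.10, 95% interval -0.03 to 0.39, adjusted p = 0.528). It read 10.49, 10.60 and 10.64 in the L-set wild type and 10.51, 10.50 and 10.68 in L/L. These groups overlapped throughout, with a difference of -0.01 (SE 0.10, adjusted p = 1). Csf1 had the steadiest replicates of the 9 genes, with a residual SD of 0.0817, and Cxcl5 the most variable, with 0.341; the median over all genes was 0.167.

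Over the 9 genes, 0 were called in S/S, where 0.12% of all genes were called (24 genes, 18 higher and 6 lower). At an unadjusted limma p under 0.05 there were 3 (Cxcl5, Ccl2 and Ccl7), against 10.1% of all genes. In 4 of the 9 the S/S and wild-type arrays did not overlap, against 11.8% of all genes: 3 were higher (Ccl2, Ccl7 and Csf1; 5.49% of all genes) and 1 was lower (Cxcl5; 6.29% of all genes). In L/L 0 of 9 were called, against 0.0401% of all genes (8 genes). The unadjusted count was 1 (Ccl7), against 3.27%, and 1 gene (Lif, higher) did not overlap, against 14.8% of all genes (9.71% higher and 5.1% lower). For the difference between the effects 0 of 9 were called, against 0.015% of all genes, and 2 (Ccl2 and Ccl7) had an unadjusted p under 0.05, against 6.5%. The median difference of the 9 genes was 0.11 in S/S and -0.01 in L/L, against -0.04 and 0.02 over all genes.

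**Figure D2:**
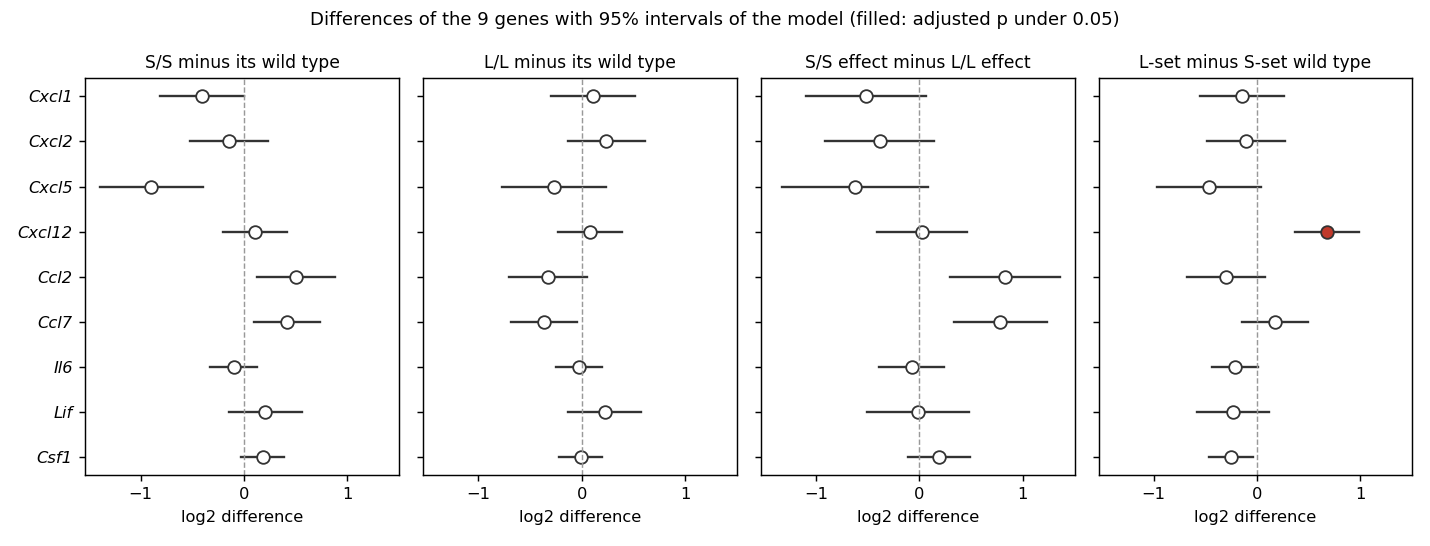
Log2 difference (x axis) of each gene (y axis) in 4 comparisons, with the 95% interval of the limma model; filled points have an adjusted p under 0.05. Cxcl12 between the wild types, at 0.68, is the filled point, and the S/S intervals of Cxcl5, Ccl2 and Ccl7 lie away from 0. So do the intervals of Ccl7 in L/L (below 0), of Ccl2 and Ccl7 for the difference between effects, and of Csf1 between the wild types.

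The wild-type groups carry the same Rb1 genotype and differ in the set they belong to. The labels do not say whether the sets differ in embryos, culture or array handling, and these cannot be told apart here. Array 1 of the L-set wild type was male (Xist at 5.06), while the S-set wild-type arrays were female. Cxcl12 was higher in the L-set than in the S-set wild type by 0.68 (SE 0.14, adjusted p = 0.0128), or 1.60-fold, and none of the L-set values overlapped those of the S set. The means in the L-set and S-set wild type were 10.25 ± 0.10 and 9.57 ± 0.34 (SD, n = 3). It was the 1 member of 9 that was called, against 8.71% of all genes (3.54% higher and 5.17% lower), so the share is close to that over all genes. The call was lost without the male L-set wild-type array (0.62, adjusted p = 0.0673), without both male arrays (0.62, adjusted p = 0.103) and with the 6 wild-type arrays fitted alone (0.68, adjusted p = 0.105); without S-set wild-type array 1 it was 0.49 (adjusted p = 0.00847). Csf1 was -0.25 (SE 0.10, adjusted p = 0.129) and Lif -0.23 (SE 0.16, adjusted p = 0.421), both with all L-set arrays below all S-set arrays. Counting genes without overlap gave 1 higher and 2 lower of 9, against 27.6% of all genes (11.5% higher and 16.1% lower), and 2 (Cxcl12 and Csf1) had an unadjusted p under 0.05, against 23.7%. The remaining differences ran from -0.47 for Cxcl5 to 0.17 for Ccl7, and their adjusted p-values were 0.233 or above. Without the male wild-type array Cxcl5 was -0.16, Ccl2 -0.14 (-0.30 with it) and Ccl7 0.32.

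The genes of both chemokine clusters were then read in their order along the chromosome, as given by RefSeq. The CXC cluster on chromosome 5 runs Cxcl5, Ppbp, Pf4, Cxcl3, Cxcl15, Cxcl1, Cxcl2, where Ppbp and Pf4 encode platelet chemokines and Cxcl15 encodes lungkine. In S/S 6 of these 7 genes had a difference below 0, where the median over all genes was -0.04. Without S-set wild-type array 1, Cxcl5 was -1.06, Cxcl15 -0.98 and Ppbp -0.66, but Cxcl1 was -0.11, Cxcl2 -0.049 and Cxcl3 -0.0057. Cxcl15 read 9.63, 9.91 and 9.62 in the S-set wild type and 8.79, 8.83 and 8.73 in S/S, without overlap. Its difference was -0.94 (SE 0.26), with an unadjusted limma p of 0.00292 and an adjusted p of 0.25. Ppbp was -0.49 (SE 0.28, adjusted p = 0.546), also without overlap, and Cxcl3 -0.18, while Pf4 was 0.18. Cxcl3 (5.18 to 5.82) and Pf4 (5.26 to 6.17) read near the upper end, 5.51, of the Y-linked range in female cells. In L/L 5 of the 7 were below 0, among them Ppbp at -0.48 and Cxcl15 at -0.41 (adjusted p = 1 for both), which were -0.10 and -0.029 without L/L array 2. Between the wild types all 7 were below 0 in the L set with all arrays; without S-set wild-type array 1, Cxcl1 was 0.15 and Cxcl3 0.0033. Ppbp was called there, at -1.38 (SE 0.28, adjusted p = 0.0108), a call lost without L-set wild-type array 2 and without the male arrays (highest adjusted p = 0.055). Probe sets of genes this alike can take up each other's RNA, and the probe sequences were not analysed here.

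The CC cluster on chromosome 11 runs Ccl2, Ccl7, Ccl11, Ccl12, Ccl8, Ccl1. In S/S the first 4 had differences above 0: after Ccl2 and Ccl7, Ccl11 (eotaxin, which attracts eosinophils) was 0.38 (SE 0.23, adjusted p = 0.561) and Ccl12 0.24 (SE 0.15, adjusted p = 0.581). Ccl12 read 4.64 to 5.48 over the 12 arrays, inside the range of the Y-linked probe sets in female cells, and its difference was 0.035 without S/S array 1. Ccl8 was -0.14 and Ccl1 -0.21. Ccl11 read 8.25, 8.29 and 8.31 in the S-set wild type and 8.93, 8.62 and 8.43 in S/S, without overlap. In L/L 5 of the 6 were below 0, with Ccl11 at -0.34, Ccl12 at -0.09 and Ccl8 at -0.64 (SE 0.28, adjusted p = 1), and Ccl1 was 0.08. Without single arrays the L/L difference ran from -0.59 to -0.06 for Ccl11 and from -1.05 to -0.37 for Ccl8. No gene of either cluster was called in either mutant with all arrays at equal weight. With array weights Cxcl5 passed in S/S (adjusted p = 0.0114), and with the S set fitted alone Cxcl15 did (adjusted p = 0.0437). Over all genes these settings gave 415 and 44 called in S/S, against 24 in the fit of all arrays at equal weight.

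**Figure D3:**
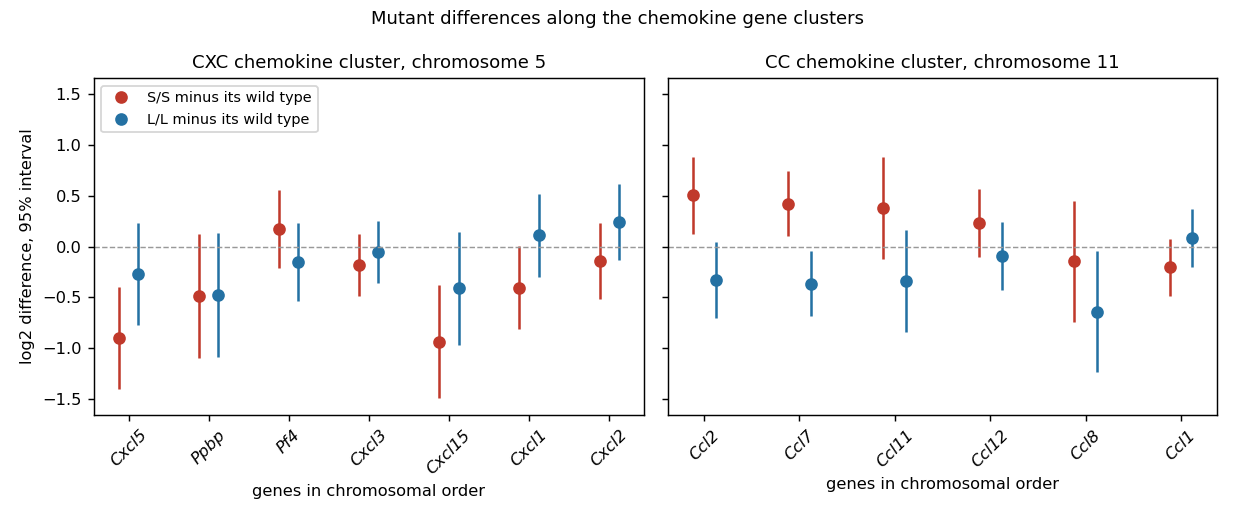
Log2 difference with the 95% interval of the limma model (y axis) for the genes of the CXC cluster and the CC cluster in chromosomal order (x axis), in S/S (red) and L/L (blue). Ccl2 and Ccl7 lie above 0 in S/S (0.50 and 0.42) and below 0 in L/L (-0.33 and -0.37), and Cxcl5 and Cxcl15 are the lowest in S/S (-0.89 and -0.94).

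Of the receptors for these ligands all 11 listed were measured, and 0 were called in S/S, in L/L, for the difference between effects or between the wild types. By unadjusted limma p under 0.05 there were 2, 0, 0 and 1 of the 11 (10.1%, 3.27%, 6.5% and 23.7% of all genes). The 3 with the smallest p in S/S were Il6ra, the ligand-binding chain for Il6 (0.35, SE 0.11, adjusted p = 0.304), Lifr, the partner of gp130 for Lif (-0.45, SE 0.18, adjusted p = 0.429), and Csf1r, the receptor of Csf1 (0.68, SE 0.44, adjusted p = 0.575). In L/L they were Lifr (-0.29, SE 0.18), Il6st, which encodes gp130 (-0.15, SE 0.11), and Il6ra (0.10, SE 0.11), each with an adjusted p of 1. The median difference of the receptors was -0.02 in S/S and -0.06 in L/L.

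Ccl2, Ccl7 and Csf1 act on monocytes and macrophages, and markers of those cells were present in the cultures. All 22 macrophage and blood cell markers listed were measured, and 0 were called in any comparison. By unadjusted limma p under 0.05 there were 1 in S/S, 0 in L/L, 2 for the difference between effects and 0 between the wild types. The shares of all genes were 10.1%, 3.27%, 6.5% and 23.7%. Cd163, at 4.78 to 5.51 in the S set, was no brighter than the Y-linked probe sets in female cells. In S/S 21 of the 22 were higher than in the wild type, with a median difference of 0.68, and 19 did not overlap, all higher, against 5.49% of all genes; their mean level ran from 7.68 to 7.87 in the S-set wild type and from 8.37 to 8.45 in S/S. The smallest p were those of the integrin gene Itgam (0.74, SE 0.23, adjusted p = 0.315), Cd68 (1.22, SE 0.59, adjusted p = 0.512) and the leukocyte tetraspanin Cd53 (1.28, SE 0.64, adjusted p = 0.516). In L/L 20 of the 22 were lower, with a median of -0.32, and none of them without overlap. That direction rested on single arrays: without L-set wild-type array 3 the median was 0.27 with 19 of 22 higher, and without L/L array 1 it was 0.21 with 17 higher. Their mean level was 7.22, 7.97 and 9.12 in the L-set wild type and 6.90, 8.38 and 8.20 in L/L, so that the 2 male arrays had the lowest levels of all 12. The smallest p in L/L were those of Cx3cr1 (-0.33, SE 0.18), Itgam (-0.40, SE 0.23) and Adgre1, which encodes the macrophage surface protein F4/80 (-0.45, SE 0.44), each with an adjusted p of 1.

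Csf1r stands in this list and among the receptors, and its 3 S/S values were above its 3 wild-type values. The markers and the 2 monocyte chemokines were thus both higher in S/S, and both were lowest in L/L array 1. Ccl2 and the markers also both rose from array 1 to array 3 of the L-set wild type. That array 3 had the highest marker level of all 12 (9.12) and the highest Ccl2 of the L set (10.25), with Ccl7 at 11.16. Both chemokines were below their S/S values there (10.71 to 11.08 for Ccl2 and 11.19 to 11.44 for Ccl7). L/L array 2 had the marker level of S/S array 2 (8.38), with Ccl2 at 9.84 against 10.74 and Ccl7 at 10.78 against 11.19. L/L array 3 had a marker level of 8.20, above the 7.68 to 7.87 of the S-set wild type. Its Ccl2 was 9.93 against 10.18 to 10.54 there, and its Ccl7 10.86 against 10.78 to 10.93. The part of such cells in the Ccl2, Ccl7 and Csf1 differences was not tested, and in bulk RNA fewer cells of a type cannot be told apart from less RNA in each cell.

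**Figure D4:**
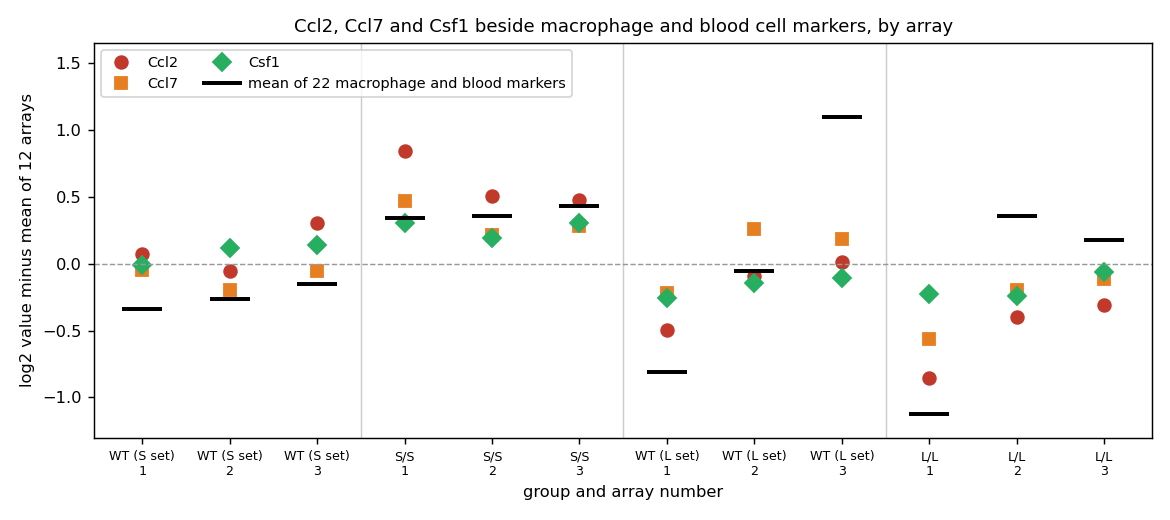
Ccl2, Ccl7 and Csf1 and the mean of 22 macrophage and blood cell markers in each array (x axis), each as the log2 value minus its own mean over 12 arrays (y axis). The marker mean is higher in the 3 S/S arrays (level 8.37 to 8.45) than in their wild type (7.68 to 7.87), and spans 7.22 to 9.12 in the L-set wild type.

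All 40 other cytokines and chemokines listed were measured, and 0 were called in S/S, in L/L or for the difference between the effects. By unadjusted limma p under 0.05 there were 8, 2 and 3, against 10.1%, 3.27% and 6.5% of all genes. Il15, which sustains natural killer and memory T cells, was the closest in S/S, at 0.63 (SE 0.11, adjusted p = 0.0622) without overlap, followed by Cxcl15 and by the membrane-bound chemokine Cx3cl1 (-0.70, SE 0.23, adjusted p = 0.365). In L/L the smallest p were those of the alarmin Il33 (-0.67, SE 0.16, adjusted p = 0.408), Ccl8, and Ccl20, the ligand of Ccr6 (0.32, SE 0.15, adjusted p = 1). The list's median was -0.06 in S/S and -0.03 in L/L.

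Between the wild types 2 of these 40 genes rose and 6 fell in the L set, against 3.54% and 5.17% of all genes. The rises were Il15 (0.75, SE 0.11, adjusted p = 0.0032) and Kitl, the ligand of Kit (1.11, SE 0.22, adjusted p = 0.009). The falls were the interferon-induced chemokine Cxcl10 (-0.93, SE 0.16, adjusted p = 0.00544), Il18 (-0.78, SE 0.14, adjusted p = 0.00673), Ppbp (above), Ccl17 (-0.45, adjusted p = 0.0328), the interleukin-1 antagonist Il1rn (-0.51, adjusted p = 0.0372) and Cx3cl1 (-0.85, adjusted p = 0.0415). Il15 was called under all 21 alternatives. Cxcl10, Il18 and Kitl were called in each of 12 fits that left out 1 array, but lost the call with the wild-type arrays fitted alone, and Il18 and Kitl also without both male arrays (highest adjusted p 0.0507, 0.0669 and 0.078).

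The NF-kappaB and interleukin-1 pathway list had 29 of 33 genes measured, and 0 were called in S/S, in L/L or for the difference between effects. By unadjusted limma p under 0.05 there were 5, 1 and 2, against 10.1%, 3.27% and 6.5% of all genes. In S/S the smallest p were those of the atypical inhibitor Bcl3 (-0.45, SE 0.19, adjusted p = 0.452), the subunit Rel (0.27, SE 0.11, adjusted p = 0.454) and the RNA sensor Tlr3 (0.38, SE 0.16, adjusted p = 0.456). In L/L they were the adhesion gene Icam1 (0.45, SE 0.16), Rel (0.22, SE 0.11) and Nfkb2 (0.20, SE 0.12), each with an adjusted p of 1. The median difference was 0.0026 in S/S and -0.0022 in L/L. Between the wild types 5 genes fell in the L set and 1 rose, against 5.17% and 3.54% of all genes: the inhibitor Nfkbib (-0.77, SE 0.11, adjusted p = 0.0029), Bcl3 (-0.81, adjusted p = 0.02), the subunit gene Rela (-0.40, adjusted p = 0.0258), Birc3 (-0.42, adjusted p = 0.0317) and Nfkb2 (-0.45, adjusted p = 0.038) fell, and the lipopolysaccharide receptor gene Tlr4 rose (0.66, adjusted p = 0.0379). Nfkbib was called in all 12 fits that left out 1 array. Bcl3 and Rela were called in 9 of them, Birc3 in 7, and Tlr4 and Nfkb2 in 5.

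For gp130 and STAT3 signalling 20 of 25 genes were measured and 0 were called in S/S, in L/L or for the difference between effects. By unadjusted limma p under 0.05 there were 2, 1 and 1, against 10.1%, 3.27% and 6.5% of all genes. The median difference was -0.11 in S/S and 0.03 in L/L. The receptor chain Cntfr had the smallest p in both mutants, at 0.40 in S/S (SE 0.15, adjusted p = 0.415) and 0.40 in L/L (SE 0.15, adjusted p = 1), each without overlap. The acute-phase genes Hp (-0.32, SE 0.13, adjusted p = 0.425) and Lcn2 (-0.31, SE 0.15, adjusted p = 0.503) followed in S/S, and the kinase gene Pim1 (0.28, SE 0.15) and Timp1 (0.21, SE 0.13), both with an adjusted p of 1, in L/L. Socs3, the feedback inhibitor of gp130, fell in the L-set wild type relative to the S-set wild type (-0.70, SE 0.15, adjusted p = 0.0117), as did Pias3, an inhibitor of STAT3 (-0.58, SE 0.11, adjusted p = 0.0089). Between the wild types 2 of the 20 were thus called lower and 0 higher, against 5.17% and 3.54% of all genes.

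Genes that limit these messages by mRNA decay or glucocorticoid action were all measured (14 of 14), with 0 called in S/S, in L/L or for the difference between effects. By unadjusted limma p under 0.05 there were 3, 1 and 3, against 10.1%, 3.27% and 6.5% of all genes. The median difference was 0.03 in S/S and 0.01 in L/L. In S/S the roquin genes Rc3h2 (0.47, SE 0.14, adjusted p = 0.301) and Rc3h1 (0.46, SE 0.15, adjusted p = 0.333) and the glucocorticoid receptor gene Nr3c1 (0.29, SE 0.13, adjusted p = 0.485) had the smallest p. In L/L they were the glucocorticoid target Fkbp5 (0.50, SE 0.13, adjusted p = 0.46), the AU-rich element binder Hnrnpd (0.19, SE 0.12, adjusted p = 1) and the phosphatase gene Dusp1 (0.29, SE 0.28, adjusted p = 1). Between the wild types Per1 (-0.66, SE 0.12, adjusted p = 0.00655) and Zfp36, which encodes the mRNA-decay factor tristetraprolin (-0.56, SE 0.10, adjusted p = 0.00672), fell in the L set, and Nr3c1 rose (0.52, SE 0.13, adjusted p = 0.0288). That is 2 of the 14 lower and 1 higher, against 5.17% and 3.54% of all genes. Of the 23 listed genes besides Cxcl12 that were called between the wild types, 7 were called in all 12 fits that left out 1 array, and the other 16 in 3 to 11 of them.

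Across the 12 arrays Ccl2 had the widest range of the 9 genes, 1.70 log2 units, above that of 97.6% of all genes, and Il6 the narrowest, 0.44. Cxcl5 spanned 1.32, Cxcl12 1.19, Cxcl1 1.07, Ccl7 1.03, Cxcl2 0.95, Lif 0.80 and Csf1 0.56, against a median of 0.67 over all genes. The genes whose profile was most like each member's were found by the Pearson correlation over 12 arrays, which share their group means, so the values are descriptions. Nav1 (0.978) and Max (0.946) were nearest to Ccl2, and Dab2 (0.938) and the cluster neighbour Ccl11 (0.892) to Ccl7. Tmem26 (0.923) and Prom1 (0.913) were nearest to Cxcl5, Crygn (0.982) and Cacna2d2 (0.981) to Cxcl1, and Cntn2 (0.88) and Nox1 (0.877) to Cxcl2. For Cxcl12 they were Atp6v1g1 (0.982) and Snora69 (0.979), for Lif Grpel1 (0.941) and Kctd10 (0.928), for Csf1 Vamp3 (0.975) and Cap2 (0.970), and for Il6 Myh4 (0.918) and Pde2a (0.916). Cxcl1 read 8.20 in S-set wild-type array 1 and 7.13 to 7.71 in the other arrays. Its range and its correlations therefore lean on that array. The same array was the lowest for Cxcl12 (9.19, the others 9.59 to 10.38) and the highest for Il6 (4.08, the others 3.63 to 3.92). Cxcl2 was highest in L/L array 2 (5.53, the others 4.58 to 5.19). The ranges of these genes also lean on single arrays.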

How the data were processed

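RNA was measured on 12 arrays in 4 groups of 3, grouped by the labels. The deposited values are log2 RMA values (corrected for background, normalized across arrays and combined into 1 value for each probe set), which the authors made with Partek, per the series design text and the submitters' processing notes; its version, the arrays normalized together and the genome build are not given in the sources used here, and the log2 scale was inferred from their range (2.43 to 14.67).

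Of 35556 probe sets, the supplied annotation gave 21789 a single symbol, 1621 several and 12146 none. Per gene the probe set with the highest mean over 12 arrays was used, giving 19938 genes, with no filter on dim values. A linear model with 4 group means was fitted in limma 3.58.1 (R 4.3.3; 8 residual and 5.19 prior degrees of freedom) and tested on simulated data. Tests were two-sided, with Benjamini-Hochberg adjustment over all genes in each of 4 contrasts. Precision is limited by the number of arrays.

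The members and the 11 other gene lists were chosen with earlier results of these data known, and lists were matched to current RefSeq symbols; some list genes were not analysed here. Named genes were the 9 members, the 3 smallest p in each mutant in each list, every list gene called, 2 genes most like each member, Rb1 and the neighbours in both clusters. Promoter windows came from RefSeq (GRCm38.p6). Alternatives were quantile normalization, a mean of at least 6, averaging probe sets, each set alone, trend and robust variances, array weights, a replicate block, and leaving out arrays. Same-numbered samples did not deviate together in every pair (correlations of deviations 0.388, 0.475 and -0.122 in the S set and 0.601, 0.0576 and 0.360 in the L set), so the numbers were not taken to pair the samples.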

Additional observations from a re-analysis of the deposited data

How the results depend on the processing

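The counts of members called were 0 in S/S, 0 in L/L, 0 for the difference between effects and 1 between the wild types. With array quality weights they were 1 (Cxcl5, -1.09, adjusted p = 0.0114), 0, 2 and 6. Between the wild types the count was 0 with the 6 arrays alone, 0 without both male arrays, 3 without both arrays numbered 1 of the S set, and between 0 and 1 when each array was left out in turn. Over all genes the S/S count of 24 was 44 with the set alone, 415 with weights, 37 with the replicate block, 37 without the male arrays, 3 without both S-set arrays 1 and 2 to 38 without single arrays. The L/L count of 8 was 5, 336, 5, 2, 42 and 2 to 26 under the same settings. The count for the difference between effects was 3 (1 higher, 2 lower), 8 after quantile normalization (1 higher, 7 lower), 293 with weights, 8 without both S-set arrays 1, and 3 to 21 without single arrays. Between the wild types 1736 became 2686 after quantile normalization, 228 with the arrays alone, 6520 with weights, 304 without the male arrays, 2870 without both S-set arrays 1, and 525 to 2078 without single arrays.

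The replicate block changed no member's call; between the wild types it gave 1794 genes. Not every sample deviated most like its own number.

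Signs turned for small differences. Cxcl12 in S/S (0.11) was -0.0076 with weights, -0.038 without both S-set arrays 1 and -0.082 to 0.24 without single arrays. Cxcl12 for the difference between effects (0.03) was -0.034 after quantile normalization, -0.11 with weights, -0.0042 without the male arrays, -0.12 without both S-set arrays 1 and -0.16 to 0.16 without single arrays. Lif for that difference (-0.01) was 0.084 with weights, 0.13 without both S-set arrays 1 and -0.18 to 0.21 without single arrays. Il6 in L/L (-0.03) was 0.029 with weights, 0.051 without the male arrays and -0.079 to 0.064 without single arrays. Cxcl1 between the wild types (-0.15) was 0.19 with weights, 0.15 without both S-set arrays 1 and -0.32 to 0.15 without single arrays. Csf1 in L/L (-0.01) was -0.068 to 0.024 and Pf4 in L/L (-0.15) was -0.33 to 0.057 without single arrays, and Ccl1 in S/S (-0.21) was 0.013 without both S-set arrays 1. The cause of these shifts was not tested. Among other listed genes that were not called, Il15 (lowest adjusted p = 0.0064) and Cx3cl1 (0.0206) in S/S and Fkbp5 (0.00397) and Il33 (0.0148) in L/L passed with weights. Leaving out arrays was applied to the marker lists after seeing the data.

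Ccl2, Ccl7 and Cxcl5 kept their direction in S/S and in L/L under all 21 alternatives, and for the difference between effects under all 20 that could be fitted. The filter on dim values left out Cxcl2 and Il6, and the sets fitted alone give no difference between effects.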

Other observations

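Markers of further cell types were read for the same arrays, and 0 were called in either mutant by limma after adjustment over all genes. At an unadjusted limma p under 0.05 there were 4 of 13 endothelial, 0 of 11 epithelial, 2 of 12 muscle and 5 of 10 neural markers in S/S. In L/L there were 0, 1, 0 and 0. The shares of all genes were 10.1% in S/S and 3.27% in L/L. In S/S the endothelial genes Flt1 (0.72, SE 0.13, adjusted p = 0.0603), Emcn (1.62, SE 0.41, adjusted p = 0.197) and Eng (0.40, SE 0.12, adjusted p = 0.308) lay above the wild type without overlap, while 9 of the 13 endothelial markers had a difference below 0. In L/L Flt1 (0.25), Eng (0.23) and Esam (0.24) had the smallest p of that list, each with an adjusted p of 1. Of 11 epithelial markers 10 were below 0 in S/S, with Krt5 (-0.35), Epcam (-0.17) and Krt14 (-0.22) of smallest p; their mean level was 6.82 in S-set wild-type array 1 against 6.33 and 6.27 in arrays 2 and 3 and 6.28 to 6.36 in S/S, and without array 1 only 6 were below 0 and the median was -0.0073 (-0.17 with it). In L/L Krt19 (0.42, SE 0.12, adjusted p = 0.569), Cldn7 (0.15) and Cdh1 (0.08) were first. Skeletal muscle markers had a median of -0.15 in S/S, which was -0.014 without the same array, and were led by Des (0.50, adjusted p = 0.378), Actc1 (-0.42, adjusted p = 0.396) and Chrna1 (-0.26) in S/S and by Tnnc1 (0.09), Actc1 (0.13) and Mylpf (-0.07) in L/L. Neural and glial markers were led by Stmn2 (-0.70, SE 0.16, adjusted p = 0.146), Sox2 (-0.33) and Gfap (-0.46) in S/S, all without overlap, and by Olig2 (0.17), Syt1 (0.20) and Stmn2 (-0.25) in L/L. The mean level of the neural and glial markers was also highest in S-set wild-type array 1, at 6.82. It was 6.55 and 6.64 in arrays 2 and 3 of that wild type and 6.45 to 6.57 in S/S.

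Among the fibroblast markers the small leucine-rich proteoglycan gene Lum had the smallest p in S/S (-0.75, SE 0.26, adjusted p = 0.381), without overlap, and Col6a1 (-0.30) and Pdgfra (-0.26) followed. In L/L 12 of the 14 measured fibroblast markers were below 0, 8 of them without overlap, against 5.1% of all genes, with Dcn (-0.20), Lum (-0.47) and Col3a1 (-0.30) of smallest p and an adjusted p of 1. Between the wild types Thy1 fell (-0.49, adjusted p = 0.0201) and Dcn rose (0.35, adjusted p = 0.0452) in the L set, as did the endothelial receptor gene Tek (0.58, adjusted p = 0.0134), and Gfap fell (-0.67, adjusted p = 0.0486). These were 1 lower and 1 higher of 14 fibroblast markers, 1 higher of 13 endothelial and 1 lower of 10 neural and glial markers. Over all genes 5.17% were called lower and 3.54% higher. Dcn and Gfap were each called in 3 of 12 fits that left out 1 array, and Gfap was -0.37 without S-set wild-type array 1.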
